A study of Mus musculus with 8 samples.

Results

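Cholesterol synthesis, uptake and trafficking was examined as a set of 29 named genes in mouse kidney of mice given bisphenol A (BPA), against kidney of mice given vehicle. The members were the rows of the deposited expression table whose gene name stood on the list, and all 29 were found among its 54532 genes. Polyadenylated RNA was sequenced from kidneys of ICR mice, an outbred stock, with 4 BPA libraries and 4 vehicle libraries. The labels name no allele in either group, and they state no dose, route, duration or age. Whether each library is a different mouse is not stated, and the p-values therefore reflect the spread among these samples alone, which may be technical. The samples are bulk tissue, so fewer cells of a type and less RNA per cell cannot be told apart. Despite the word uptake, the list holds no lipoprotein receptor, and receptors are described from a separate list at the end.

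Cells make cholesterol from acetyl-CoA through mevalonate, farnesyl diphosphate, squalene and lanosterol, and most enzymes of this route are switched on together by the transcription factor SREBP2. When membrane sterol is plentiful, INSIG proteins hold SREBP2 and its escort SCAP in the endoplasmic reticulum, and the genes of synthesis are turned down. Cholesterol that arrives with lipoproteins leaves the lysosome through NPC2 and NPC1, and the surplus is esterified by SOAT1 or exported by ABCA1 and ABCG1. In the kidney the proximal tubule takes up filtered proteins together with the lipids they carry.

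Whole read numbers recovered from the deposited values came to between 15944081 and 17351540 per library. All 10 proximal tubule markers passed the filter on low values. Kap, an androgen-dependent gene of the tubule, held most of their sum, at 29692 to 61935 FPKM in BPA libraries, lowest in replicate 4, and 45458 to 61860.5 FPKM in vehicle libraries. The other 9 summed to 4187 to 5379 FPKM in BPA, highest in replicate 4, and 4046 to 4990 FPKM in vehicle. FPKM is reads scaled by the length of the gene and by the size of the library. Transcripts of the adrenal gland, a neighbour of the kidney that makes steroids, were near absent: 10 adrenal cortex markers summed to 1.002 to 2.82 FPKM in BPA and 1.61 to 3.49 FPKM in vehicle, and Cyp11a1, Cyp11b2 and Nr5a1 had 0 reads throughout. Adipocyte markers, from cells that store cholesterol, summed to 2.502 to 22.1 FPKM in BPA and to 3.53 to 309 FPKM in vehicle, with the highest sum in vehicle replicate 4. The 10 macrophage markers summed to 39.1 to 63.8 FPKM in BPA and 35.1 to 121 FPKM in vehicle, and 88.4 FPKM of the highest sum, in vehicle replicate 4, was Lyz2. The other 9 summed to 25.2 to 44.6 FPKM in BPA and 30.4 to 39.2 FPKM in vehicle. Mitochondrial transcripts took 10.9 ± 2.20% of reads in BPA and 7.41 ± 0.615% in vehicle (SD, n = 4 each; 2-sided exact permutation p = 0.0286, the smallest the design allows, adjusted p = 0.200 over 14 library measures). That share peaked at 14.2% in BPA replicate 4, which also had the fewest genes above 0, 17174. The part of these differences in the members' values was not tested, beyond leaving out each library.

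Transcripts of every step of the pathway were measured in kidney, Fdps excepted, and no member passed the test between BPA and vehicle. Of the 29 genes, 28 averaged 0.5 FPKM or more across all 8 libraries and were tested with limma among 13376 genes on the log2(FPKM + 1) scale. At a Benjamini-Hochberg adjusted p under 0.05, 0 members were called, beside 0.00748% of all tested genes, which is 1 gene. The smallest adjusted p of a member was 0.271. At an unadjusted p under 0.05, 4 members had higher values in BPA (14.3% of 28, beside 4.18% of all tested genes) and 2 had lower values (7.14%, beside 6.83%). The higher ones were Sc5d, Gpr155, Soat1 and Idi1, and the lower ones were Pmvk and Npc2. In 3 members, Sc5d, Gpr155 and Soat1, every BPA library was above every vehicle library, which 3.23% of all tested genes also showed, and in 0 members every BPA library was below (4.66% of tested genes). Counting direction alone, 20 members had a positive and 8 a negative change, with a median log2 change of 0.10, beside -0.01 over all tested genes.

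**Figure D1:**
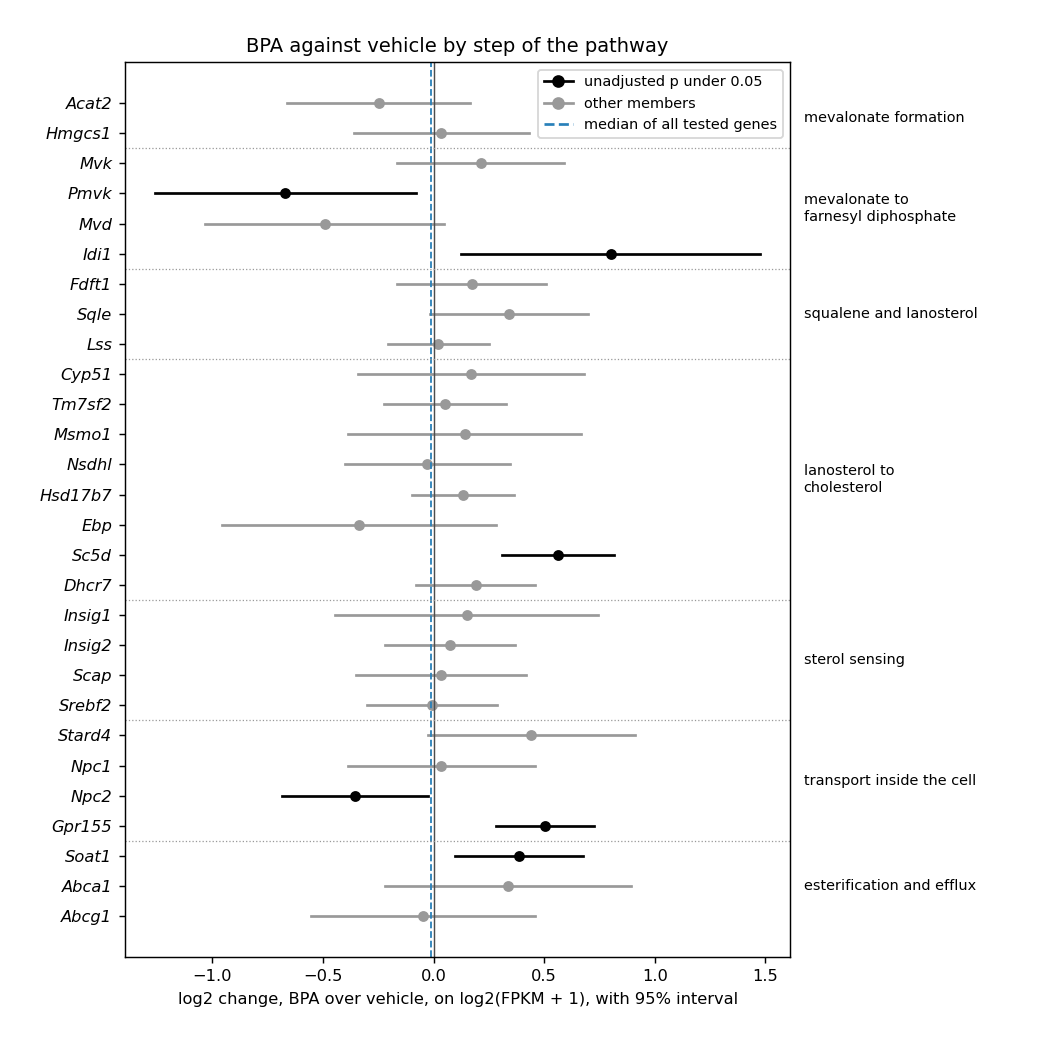
Log2 change of each tested member, BPA over vehicle, on the log2(FPKM + 1) scale (x axis) by step of the pathway (y axis), with limma's 95% intervals and the median of all tested genes as a dashed line. Black points are the 6 members with an unadjusted p under 0.05: Idi1, Sc5d, Gpr155 and Soat1 lie to the right of 0, and Pmvk and Npc2 to the left.

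Levels differed far more between members than between groups. Hmgcs1 averaged 160.3 ± 16.01 FPKM in BPA and 159 ± 36.3 FPKM in vehicle (SD, n = 4 each), and Cyp51 averaged 120.4 ± 28.5 FPKM in BPA and 108 ± 31.0 FPKM in vehicle. The lowest Cyp51 library, at 86.2 FPKM, was above the highest library of the next gene in order, Ebp, at 54.7 FPKM. Then came a long run of members whose ranges overlapped from neighbour to neighbour, from Ebp and Nsdhl with means over the 8 libraries of 34.8 and 32.6 FPKM down to Sqle and Hsd17b7 with 9.63 and 9.12 FPKM. A second break separated Hsd17b7, never under 7.90 FPKM, from Dhcr7, never over 7.18 FPKM. Below it the order again had no break down to Abcg1, at a mean of 0.962 FPKM, and the last break lay between Abcg1 and Fdps. Only these 3 of the 28 pairs of neighbours in the order of levels did not overlap over the 8 libraries. The synthesis members together summed to 477, 519, 489 and 415 FPKM in BPA libraries, against 407, 409, 555 and 500.1 FPKM in vehicle libraries. These sums overlapped between the groups, and Hmgcs1 and Cyp51 held most of them.

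**Figure D2:**
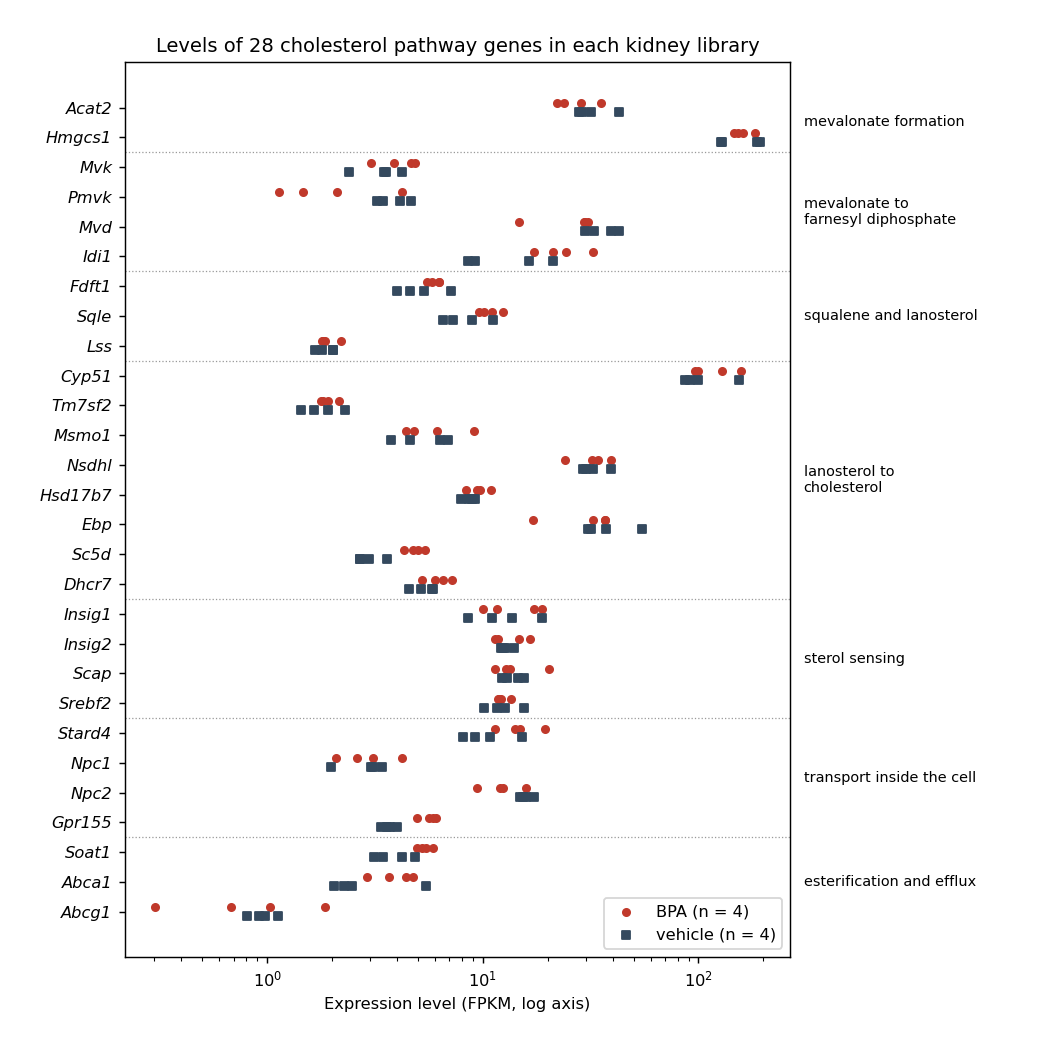
Level of the 28 tested members in each library, in FPKM on a log axis (x axis), by step of the pathway (y axis), with BPA libraries as circles and vehicle libraries as squares (n = 4 each). Hmgcs1 and Cyp51 lie at 86.2 FPKM or more in every library, and the circles of Sc5d, Gpr155 and Soat1 all lie to the right of their squares.

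Mevalonate formation was represented by Acat2, which joins acetyl-CoA units into acetoacetyl-CoA in the cytosol, and Hmgcs1, the cytosolic synthase that makes hydroxymethylglutaryl-CoA. Hmgcs1 was at 145, 153, 182 and 160.3 FPKM in BPA libraries, against 127, 128, 187 and 193 FPKM in vehicle libraries. The BPA values lay inside the range of the vehicle values, in which replicates 3 and 4 were high. Its log2 change was 0.04 (SE 0.175, 95% interval -0.36 to 0.43, limma adjusted p = 0.945). Acat2 was at 28.7, 23.9, 35.3 and 22.1 FPKM in BPA, against 28.8, 28.02, 31.6 and 42.7 FPKM in vehicle. The groups overlapped, 3 of 4 BPA libraries were below the vehicle mean, and the change was -0.25 (SE 0.183, limma adjusted p = 0.602). The transcript of Acat2 aligns to that of Acat3 with 97.7% identity over 1477 bases, and Acat3 averaged 3.62 FPKM. It also aligns to that of Tcp1 with 98.7% identity over 445 bases, and Tcp1 averaged 32.6 FPKM, so the division of reads among these genes is uncertain. The interval of Hmgcs1, the most abundant member, reached 0.43 at most on the log2 scale.

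From mevalonate to farnesyl diphosphate, Mvk and Idi1 had positive changes and Pmvk and Mvd negative ones, and none was called. Pmvk encodes phosphomevalonate kinase, and its level was 4.21, 2.11, 1.47 and 1.13 FPKM in BPA, against 3.22, 3.46, 4.15 and 4.64 FPKM in vehicle. BPA replicate 1 was inside the vehicle range and the other 3 BPA libraries were below all vehicle libraries. The means were 2.23 ± 1.38 FPKM in BPA and 3.87 ± 0.648 FPKM in vehicle (SD, n = 4 each), with a log2 change of -0.67 (SE 0.259, 95% interval -1.26 to -0.08, unadjusted p = 0.0299, limma adjusted p = 0.423). These levels rest on 32 to 125 reads per BPA library and up to 138 per vehicle library.

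Mvd, the decarboxylase that makes isopentenyl diphosphate, was at 29.6, 30.6, 29.6 and 14.7 FPKM in BPA, against 39.4, 29.8, 42.7 and 32.7 FPKM in vehicle. All 4 BPA libraries were below the vehicle mean, the groups overlapped, and BPA replicate 4 was far the lowest. The change was -0.49 (SE 0.237, 95% interval -1.03 to 0.05, limma adjusted p = 0.476). Mvk, the mevalonate kinase that acts before Pmvk, averaged 4.10 ± 0.831 FPKM in BPA and 3.41 ± 0.743 FPKM in vehicle, a change of 0.21 (limma adjusted p = 0.623).

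Idi1, the isomerase that interconverts isopentenyl and dimethylallyl diphosphate, had the largest positive change of the 28 tested members. It was at 17.2, 32.3, 21.1 and 24.4 FPKM in BPA, against 16.3, 21.1, 9.18 and 8.53 FPKM in vehicle. The groups overlapped through vehicle replicate 2, which was above BPA replicate 1, and vehicle replicates 3 and 4 were the lowest. The ratio of means was 1.73 and the change 0.80 (SE 0.297, 95% interval 0.12 to 1.48, unadjusted p = 0.0253, limma adjusted p = 0.408). The processed pseudogene Gm13502 matches 684 bases of the Idi1 transcript without a mismatch and averaged 1.41 FPKM, and Gm35570 matches at 97.7% and averaged 0.552 FPKM. Part of the reads of Idi1 is therefore of uncertain origin.

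Fdps encodes farnesyl diphosphate synthase, and its row held 2, 2, 0 and 1 recovered reads in BPA libraries, against 3, 0, 2 and 0 in vehicle libraries. No library passed 3 reads, which correspond to 0.0389 to 0.0461 FPKM, so the gene was not tested and no fold is given. Its transcript has near copies: Gm3571 at 98.9% identity over 1062 bases and 1.505 FPKM, Gm5873 at 96.7% and 0.224 FPKM, and Gm43738 at 100% over 929 bases and 0 reads. Gapdh, a gene of glycolysis with many pseudogenes, was likewise low and uneven, at 0.966 to 22.0 FPKM in BPA and 1.99 to 19.0 FPKM in vehicle. How reads with several matches were counted is not stated, so the row of Fdps was not read as the level of the enzyme's transcript.

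The squalene and lanosterol step consisted of Fdft1, Sqle and Lss, and all 3 had positive changes that did not pass. Sqle encodes squalene epoxidase, a rate-limiting oxygenase of the route, and was at 12.5, 9.59, 10.1 and 11.1 FPKM in BPA, against 8.88, 11.1, 7.25 and 6.56 FPKM in vehicle. All 4 BPA libraries were above the vehicle mean, while vehicle replicate 2 reached the level of BPA replicate 4. The change was 0.34 (SE 0.158, 95% interval -0.02 to 0.70, limma adjusted p = 0.465). Lss, which folds the epoxide into lanosterol, was at 1.85, 1.79, 1.82 and 2.20 FPKM in BPA, against 2.01, 2.02, 1.80 and 1.67 FPKM in vehicle. The groups overlapped, and the change of 0.02 had an interval of -0.21 to 0.25. Fdft1, squalene synthase, averaged 5.96 ± 0.349 FPKM in BPA and 5.27 ± 1.36 FPKM in vehicle (change 0.17, limma adjusted p = 0.651). It shares 774 exonic bases with Ctsb on the opposite strand, which averaged 107 FPKM, and whether counting used strand is not given, so its level is uncertain.

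Between lanosterol and cholesterol, 8 enzymes remove methyl groups and move double bonds, and Sc5d alone among them reached an unadjusted p under 0.05. Sc5d encodes the sterol desaturase that places a double bond in the B ring shortly before the last reduction. Its level was 5.02, 4.77, 4.33 and 5.41 FPKM in BPA, against 3.61, 2.98, 2.70 and 2.69 FPKM in vehicle. The lowest BPA library stood above the highest vehicle library. The ratio of means was 1.63, and the log2 change was 0.56 (SE 0.111, 95% interval 0.31 to 0.81, unadjusted p = 0.000734, limma adjusted p = 0.271). Sc5d occupies chr9:42251595-42264256 on the minus strand of GRCm38, shares no exonic base with another annotated gene, and had 203 to 435 reads per library.

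Cyp51, the lanosterol demethylase, was at 129, 157, 96.0 and 99.6 FPKM in BPA, against 86.2, 91.2, 153 and 99.99 FPKM in vehicle. Its groups overlapped, with BPA replicate 2 and vehicle replicate 3 highest, and the change was 0.17 (SE 0.225, 95% interval -0.34 to 0.68, limma adjusted p = 0.775). Tm7sf2, a sterol reductase and the least abundant of the 8, was at 1.77, 1.92, 1.81 and 2.16 FPKM in BPA, against 1.91, 1.65, 2.30 and 1.44 FPKM in vehicle. The BPA values lay inside the vehicle range, and the change was 0.05 (95% interval -0.22 to 0.33, limma adjusted p = 0.876).

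The other 5 enzymes of this stretch had changes from -0.34 to 0.19, and none passed. Dhcr7, the reductase that makes cholesterol itself, averaged 6.25 ± 0.823 FPKM in BPA and 5.35 ± 0.617 FPKM in vehicle (change 0.19, limma adjusted p = 0.546). Msmo1, the methylsterol oxidase, averaged 6.12 ± 2.12 FPKM in BPA and 5.39 ± 1.47 FPKM in vehicle (change 0.14, adjusted p = 0.818). Hsd17b7, the sterol ketone reductase, averaged 9.60 ± 1.022 FPKM in BPA and 8.65 ± 0.544 FPKM in vehicle (change 0.13, adjusted p = 0.619). These are also the genes with the lowest levels of the stretch after Tm7sf2 and Sc5d. Ebp, the sterol isomerase, averaged 30.9 ± 9.35 FPKM in BPA and 38.7 ± 11.1 FPKM in vehicle (change -0.34, adjusted p = 0.633), and its BPA replicate 4 was the lowest library at 17.2 FPKM. Nsdhl, the decarboxylating sterol dehydrogenase, averaged 32.4 ± 6.39 FPKM in BPA and 32.8 ± 4.59 FPKM in vehicle (change -0.03, adjusted p = 0.953).

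Before any correction for GC content, sterol sensing was the step with the smallest changes, from -0.01 to 0.15 over its 4 genes. After the GC correction described below, these changes ran from 0.03 (Insig2) to 0.23 (Scap). Srebf2, which encodes SREBP2, was at 13.5, 11.7, 11.9 and 12.2 FPKM in BPA, against 12.7, 15.5, 10.1 and 11.7 FPKM in vehicle. The BPA values lay inside the vehicle range, and the change was -0.01 (95% interval -0.30 to 0.29, limma adjusted p = 0.981). Scap, the sterol-sensing escort, was at 11.4, 12.8, 13.3 and 20.2 FPKM in BPA, against 12.3, 12.9, 15.5 and 14.5 FPKM in vehicle. The groups overlapped, with BPA replicate 4 the highest library, and the change was 0.03 (95% interval -0.35 to 0.42, limma adjusted p = 0.947). Insig1, itself a target of SREBP2, averaged 14.4 ± 4.28 FPKM in BPA and 13.0 ± 4.38 FPKM in vehicle (change 0.15, 95% interval -0.45 to 0.74, adjusted p = 0.8292). Insig2, its relative, averaged 13.6 ± 2.46 FPKM in BPA and 12.8 ± 0.821 FPKM in vehicle (change 0.07, adjusted p = 0.8294).

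Transport inside the cell held both the gene with the smallest p of the set and one with a lower value. Gpr155 encodes a lysosomal membrane protein that senses cholesterol and signals to the mTORC1 kinase. It was at 6.07, 4.94, 5.90 and 5.61 FPKM in BPA, against 4.01, 3.37, 3.59 and 3.72 FPKM in vehicle. The groups did not overlap, and the SD was 0.5002 FPKM in BPA and 0.266 FPKM in vehicle. The ratio of means was 1.53 and the log2 change 0.50 (SE 0.0973, 95% interval 0.28 to 0.73, unadjusted p = 0.00061, limma adjusted p = 0.271). Gpr155 occupies chr2:73341506-73386572 on the minus strand of GRCm38 and had 371 to 704 reads per library.

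Npc2, the soluble lysosomal protein that hands cholesterol to NPC1, was at 15.8, 12, 12.4 and 9.36 FPKM in BPA, against 15.4, 14.9, 17.4 and 15.8 FPKM in vehicle. BPA replicate 1 lay among the vehicle libraries and the other 3 BPA libraries lay below all of them. The change was -0.35 (SE 0.145, 95% interval -0.68 to -0.03, unadjusted p = 0.0373, limma adjusted p = 0.432). Npc1, the membrane transporter it serves, was at 2.08, 2.61, 3.08 and 4.23 FPKM in BPA, against 3.02, 3.08, 1.98 and 3.41 FPKM in vehicle. The groups overlapped, and the change was 0.03 (95% interval -0.39 to 0.46, limma adjusted p = 0.950). Stard4, a cytosolic sterol carrier that is itself a target of SREBP2, averaged 14.9 ± 3.31 FPKM in BPA and 10.8 ± 3.12 FPKM in vehicle. All 4 BPA libraries were above the vehicle mean, and the change was 0.44 (SE 0.206, 95% interval -0.03 to 0.91, limma adjusted p = 0.469).

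Esterification and efflux were covered by 3 genes. Soat1, the enzyme of the endoplasmic reticulum that turns free cholesterol into cholesteryl ester, was at 5.20, 5.46, 4.94 and 5.86 FPKM in BPA, against 3.46, 4.22, 4.84 and 3.12 FPKM in vehicle. The groups did not overlap, with 4.94 FPKM in the lowest BPA library beside 4.84 FPKM in vehicle replicate 3. The ratio of means was 1.37 and the change 0.39 (SE 0.127, 95% interval 0.10 to 0.67, unadjusted p = 0.0144, limma adjusted p = 0.379). Abca1, which exports cholesterol to lipid-poor apolipoprotein, averaged 3.94 ± 0.817 FPKM in BPA and 3.07 ± 1.61 FPKM in vehicle (change 0.34, 95% interval -0.22 to 0.89, limma adjusted p = 0.597). Vehicle replicate 2 was its highest library at 5.47 FPKM. Abcg1, which exports cholesterol to mature lipoprotein particles, was at 0.680, 1.03, 0.302 and 1.86 FPKM in BPA, against 0.913, 0.977, 0.811 and 1.119 FPKM in vehicle. It rests on 20 to 125 reads per library, its BPA values spread to both sides of the vehicle values, and the change was -0.05 (95% interval -0.55 to 0.46, limma adjusted p = 0.943).

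**Figure D3:**
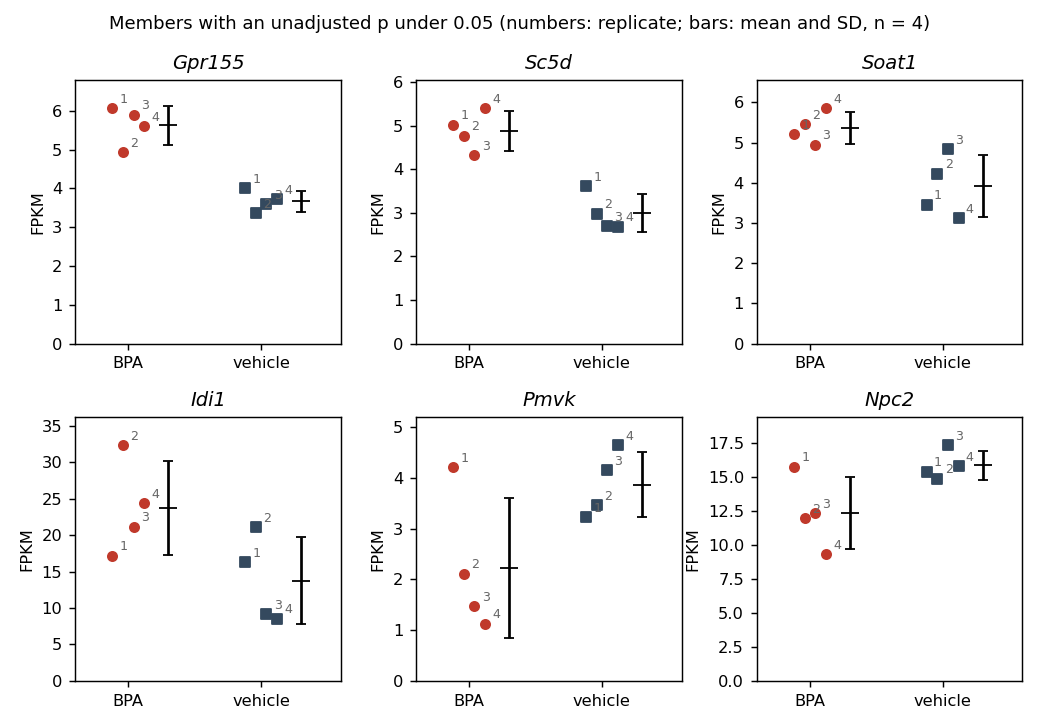
FPKM (y axis, from 0) in each BPA library (circles) and vehicle library (squares) for the 6 members with an unadjusted p under 0.05, numbered by replicate, with the mean and SD of the 4 libraries beside each group. The groups are apart in Gpr155, Sc5d and Soat1 and overlap in Idi1, Pmvk and Npc2.

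With each of the 8 libraries left out in turn, Sc5d, Gpr155 and Soat1 kept an unadjusted p under 0.05 throughout, and none was called by limma. Idi1 lost it without BPA replicate 2 or 4 or vehicle replicate 3 or 4, with changes of 0.62 to 1.024 over the 8 fits. Pmvk and Npc2 both lost it without BPA replicate 2, 3 or 4 or vehicle replicate 3 or 4, and Npc2 also without vehicle replicate 1. The change of Pmvk ran from -0.93 to -0.50 and that of Npc2 from -0.47 to -0.24.

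Set side by side, the medians of the log2 change were 0.13 over the 17 tested synthesis members, 0.05 over the 4 sensing members and 0.34 over the 7 trafficking members, beside -0.01 over all tested genes. Among the synthesis members, 12 had positive and 5 negative changes, with 2 and 1 at an unadjusted p under 0.05. The trafficking members had 5 positive and 2 negative changes, also with 2 and 1. The median deviation of the trafficking members from their means over the libraries was 0.16, 0.08, 0.07 and 0.30 in BPA libraries, against -0.15, 0.07, -0.28 and -0.24 in vehicle libraries. Vehicle replicate 2, with high Abca1 and Stard4, reached the lowest BPA library.

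**Figure D4:**
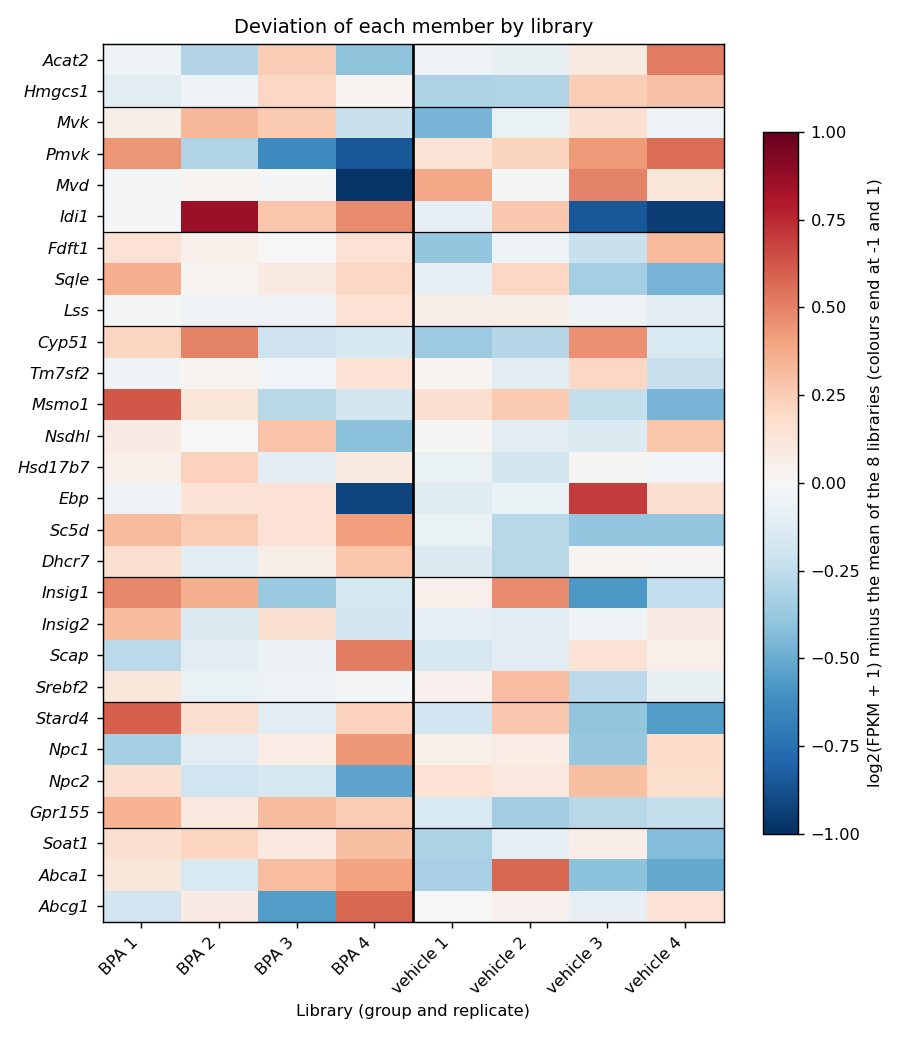
Deviation of log2(FPKM + 1) from the mean of the 8 libraries (colour, red above and blue below) for each tested member (rows, by step) in each library (columns, BPA left of the line and vehicle right of it). The rows of Sc5d and Gpr155 are red in all 4 BPA libraries and blue in all 4 vehicle libraries, and Mvd, Ebp and Pmvk are darkest blue in BPA replicate 4.

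The libraries within a group also differed by replicate number. In vehicle, 9 members were higher in both replicates 1 and 2 than in replicates 3 and 4 (beside 23.2% of all tested genes) and 11 were lower in both (26.6%). In BPA the counts were 4 (23.5%) and 4 (23.1%). Insig1 and Msmo1 stood higher in replicates 1 and 2 in both groups, and Hmgcs1 and Scap stood lower there in both groups. Pmvk and Cyp51 stood higher there in BPA but lower in vehicle, and Abca1 stood lower there in BPA but higher in vehicle. Clock genes also differed along this division, but not all in the same direction. Their summed level was 68.0 and 87.4 FPKM in BPA replicates 1 and 2 and 191 and 154 FPKM in BPA replicates 3 and 4. In vehicle it was 59.2 and 82.0 FPKM in replicates 1 and 2 and 138 and 145 FPKM in replicates 3 and 4. Arntl and Npas2 went the other way in both groups, and Nr1d1 overlapped across the division in both. Arntl was at 3.17, 2.22, 0.106 and 0.185 FPKM in BPA, against 4.27, 3.76, 0.550 and 0.337 FPKM in vehicle. The labels give no time of collection, and the part of this division in the results was not tested beyond the changes within it.

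Within these divisions some members kept their change and others did not. The log2 change of Gpr155 and of Sc5d was positive in each, as were those of Soat1 and Idi1, but that of Idi1 was 0.33 within replicates 1 and 2 and reached 1.27 within the other 2. Within replicates 1 and 2, Pmvk was at -0.11 and Npc2 at -0.13. Within replicates 3 and 4, Pmvk was at -1.23 and Npc2 at -0.58. The trafficking median was -0.07 within replicates 1 and 2, of the opposite sign to the whole, and that of the synthesis members was -0.0011 within replicates 3 and 4. Each division holds 2 libraries per group, so these are values without a test.

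**Figure D5:**
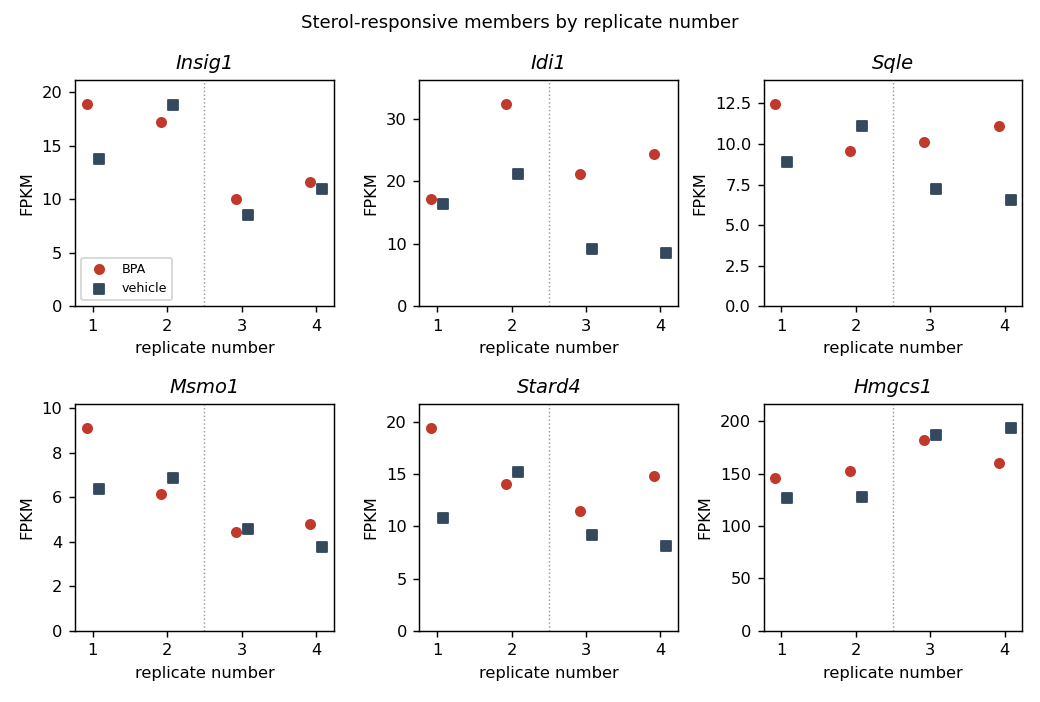
FPKM (y axis, from 0) by replicate number (x axis) for 6 members known as targets of SREBP2, with BPA as circles and vehicle as squares, and a dotted line between replicates 2 and 3. In both groups Insig1 and Msmo1 lie higher left of the line and Hmgcs1 lies lower there, while the groups are farthest apart in Idi1 right of the line.

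Transcript GC content moved with the group and with the members' changes. Across the 13364 tested genes with a known GC content, the log2 change had a Spearman correlation of -0.40 with GC, and across the 28 tested members it was -0.58, both given as descriptions over genes that share the same libraries. The 4 members with higher values in BPA at an unadjusted p under 0.05 had 41.9 to 44.1% GC, and the 2 with lower values had 51.3 to 57.0%. The median tested gene had 49.7%. After the trend with GC was removed from each library, the changes were 0.47 for Sc5d (unadjusted p = 0.00255), 0.44 for Gpr155 (0.0014), 0.32 for Soat1 (0.0359) and 0.70 for Idi1 (0.0448), each smaller than before. Those of Pmvk and Npc2 were -0.52 (0.0701) and -0.30 (0.0536). Some other changes grew. Mvk went from 0.21 to 0.35 (unadjusted p = 0.0497), under the 0.05 that it had not reached before. Dhcr7 went from 0.19 to 0.27 (0.0594) and Scap from 0.03 to 0.23 (0.238). No member was called by limma after this correction either, with an adjusted p of 0.573 for Sc5d and Gpr155.

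Start-site sequences are shown for the 4 members with higher values and for Hmgcs1, the most abundant member and a classic target of SREBP2, because the factor acts through short elements near the start together with NF-Y, which binds CCAAT. The windows run 5′ to 3′ on the gene's strand, from 250 bases before to 50 bases after the start, from RefSeq on GRCm38.p6. Capitals mark CCAAT on either strand, which reads ATTGG on the other, and the core of the sterol element, CACNCCAC, on either strand. They lie at chr9:42264251-42264550 minus for Sc5d, chr2:73386431-73386730 minus for Gpr155, chr1:156474279-156474578 minus for Soat1, chr13:8885356-8885655 plus for Idi1 and chr13:119690101-119690400 plus for Hmgcs1.
Sc5d: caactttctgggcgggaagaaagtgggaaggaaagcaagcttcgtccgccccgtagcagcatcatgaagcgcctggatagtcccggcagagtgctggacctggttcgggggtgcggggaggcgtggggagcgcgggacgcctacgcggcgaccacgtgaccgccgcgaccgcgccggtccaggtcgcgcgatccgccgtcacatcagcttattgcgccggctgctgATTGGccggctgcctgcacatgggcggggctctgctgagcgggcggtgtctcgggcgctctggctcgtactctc
Gpr155: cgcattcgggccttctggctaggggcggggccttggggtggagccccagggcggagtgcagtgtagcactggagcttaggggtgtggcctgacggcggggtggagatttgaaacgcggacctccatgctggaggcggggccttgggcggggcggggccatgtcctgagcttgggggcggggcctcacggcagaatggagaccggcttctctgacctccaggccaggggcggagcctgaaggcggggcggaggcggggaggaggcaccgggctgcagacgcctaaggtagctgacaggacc
Soat1: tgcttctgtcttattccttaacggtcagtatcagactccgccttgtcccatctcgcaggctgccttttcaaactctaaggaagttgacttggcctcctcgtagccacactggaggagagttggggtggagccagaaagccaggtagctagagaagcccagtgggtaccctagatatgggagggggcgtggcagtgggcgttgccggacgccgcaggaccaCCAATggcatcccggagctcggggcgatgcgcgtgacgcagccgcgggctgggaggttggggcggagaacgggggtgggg
Idi1: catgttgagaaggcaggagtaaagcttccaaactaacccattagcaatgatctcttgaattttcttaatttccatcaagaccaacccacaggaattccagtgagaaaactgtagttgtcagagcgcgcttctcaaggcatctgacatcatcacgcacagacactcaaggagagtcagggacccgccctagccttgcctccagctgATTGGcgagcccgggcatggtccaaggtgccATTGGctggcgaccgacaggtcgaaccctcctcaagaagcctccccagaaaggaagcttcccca
Hmgcs1: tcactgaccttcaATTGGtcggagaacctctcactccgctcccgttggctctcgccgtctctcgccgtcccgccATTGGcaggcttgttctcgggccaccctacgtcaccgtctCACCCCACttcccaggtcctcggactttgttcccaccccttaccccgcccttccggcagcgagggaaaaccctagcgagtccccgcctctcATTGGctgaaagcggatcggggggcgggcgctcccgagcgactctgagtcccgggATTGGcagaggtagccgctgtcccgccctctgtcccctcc
Hmgcs1, with a change of 0.04, held 4 CCAAT matches and the single CACNCCAC match among these 5 windows. Sc5d and Soat1 each held 1 CCAAT match, at 24 and 30 bases before the start, and Idi1 held 2. Gpr155 held neither motif but 7 matches to GGGCGG, the Sp1 box, which is not in capitals.

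RefSeq windows were matched for 23 of the 29 members, 29 windows in all. Searched on both strands, CCAAT stood in 65.5% of the member windows, beside 37.0% of 11659 windows of tested protein-coding genes and 37.4% of all 32851 windows. GGGCGG stood in 86.2% of member windows beside 62.4% of those of tested protein-coding genes, and CACGTG, the E-box, in 24.1% beside 10.03%. The core CACNCCAC stood in 10.3% (3 of 29 windows) beside 6.39%, in the windows of Acat2, Hmgcs1 and Insig1. The full sterol regulatory element, a longer form of this core, stood in 0 of the 29 member windows. It stood in only 0.214% of the windows of tested protein-coding genes, so 29 windows are too few to show an excess or a lack. No 2 different motifs overlapped in a member window, and a match describes letters in this window only.

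Other genes of sterol metabolism were counted from 6 further lists, and limma called 0 members in each. Over all tested genes, 48.0% of changes were positive and 52.0% negative, and an unadjusted p under 0.05 was reached in the positive direction by 4.18% of them and in the negative direction by 6.83%. Among 16 genes of SREBP processing and turnover, 9 had positive and 7 negative changes (median 0.07), with 1 in each direction at an unadjusted p under 0.05. Tmem97, a binding partner of NPC1 and itself responsive to sterols, was at 15.1, 13.4, 10.5 and 12.5 FPKM in BPA, against 7.90, 10.1, 10.2 and 5.65 FPKM in vehicle. Its groups did not overlap, and the change was 0.57 (SE 0.184, limma adjusted p = 0.374). Pcyt2, of phosphatidylethanolamine synthesis, averaged 25.0 ± 3.53 FPKM in BPA and 31.0 ± 3.12 FPKM in vehicle (change -0.30, adjusted p = 0.448), also without overlap.

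Lipoprotein receptors and lysosomal uptake, the branch the members lack, had 12 positive changes and 1 negative among 13 tested genes (median 0.17), of which 2 positive ones and 0 negative ones had an unadjusted p under 0.05. Lamp2, a lysosomal membrane protein, averaged 129 ± 8.88 FPKM in BPA and 104 ± 10.4 FPKM in vehicle (change 0.32, limma adjusted p = 0.408), with no overlap between the groups. Lipa, the lysosomal lipase that frees cholesterol from its esters, averaged 97.6 ± 20.5 FPKM in BPA and 74.1 ± 6.58 FPKM in vehicle (change 0.37, adjusted p = 0.453). Among 17 sterol transfer proteins, 7 changes were positive and 10 negative (median -0.03), with 1 higher at an unadjusted p under 0.05. That gene was Osbpl5, an oxysterol-binding protein relative, at 6.60 ± 0.856 FPKM in BPA and 5.12 ± 0.229 FPKM in vehicle (change 0.31, adjusted p = 0.387), without overlap. The next by p, Osbpl1a of the same family, averaged 11.9 ± 1.30 FPKM in BPA and 9.76 ± 1.64 FPKM in vehicle (change 0.26, adjusted p = 0.483).

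Of 11 genes of the sterol receptor LXR and its targets, 9 were tested, with 4 positive and 5 negative changes (median -0.02) and 2 lower at an unadjusted p under 0.05. Both were receptors: Rxrb, a partner of LXR, averaged 7.42 ± 1.23 FPKM in BPA and 10.5 ± 1.21 FPKM in vehicle (change -0.46, limma adjusted p = 0.365), without overlap. Nr1h2, which encodes LXR beta, averaged 19.2 ± 1.45 FPKM in BPA and 23.5 ± 2.63 FPKM in vehicle (change -0.28, adjusted p = 0.429). Of 12 oxysterol and bile acid enzymes, 6 were tested, with 3 changes in each direction (median 0.10) and 0 at an unadjusted p under 0.05. Cyp7b1, an oxysterol hydroxylase, averaged 73.5 ± 55.8 FPKM in BPA and 40.6 ± 33.6 FPKM in vehicle (change 1.28, adjusted p = 0.609), a difference smaller than its spread. Cyp39a1, of the same class, averaged 1.41 ± 0.727 FPKM in BPA and 0.988 ± 0.193 FPKM in vehicle (change 0.24, adjusted p = 0.634).

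The isoprenoid branch, which draws farnesyl diphosphate into protein prenylation, dolichol and ubiquinone, had 4 positive and 12 negative changes among 16 tested genes (median -0.09). At an unadjusted p under 0.05, 0 were higher and 1 was lower. That gene was Rce1, the protease that trims prenylated proteins, at 8.43 ± 2.14 FPKM in BPA and 13.1 ± 1.24 FPKM in vehicle (change -0.60, SE 0.169, limma adjusted p = 0.365), with no overlap between the groups. Icmt, the methyltransferase that acts after it, averaged 14.8 ± 0.438 FPKM in BPA and 17.0 ± 1.22 FPKM in vehicle (change -0.18, adjusted p = 0.478), also without overlap. The 1 lower gene is 6.25% of the branch, near the 6.83% of all tested genes.

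After the GC correction, 5 of the 8 genes of these lists with an unadjusted p under 0.05 no longer had one. The change of Pcyt2 was then -0.11 (unadjusted p = 0.366), that of Lamp2 0.17 (0.145), that of Lipa 0.28 (0.108), that of Rxrb -0.22 (0.107) and that of Nr1h2 -0.051 (0.641). Tmem97 at 0.64 (0.00702), Osbpl5 at 0.45 (0.00257) and Rce1 at -0.45 (0.0199) kept it.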

How the data were processed

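RNA-seq of polyadenylated kidney RNA gave 4 BPA and 4 vehicle libraries. The deposited table holds FPKM values made by the authors for 54532 genes, with gene lengths and coordinates. The submitters' processing notes list DESeq2 1.20.0 and GRCm38 without a role. The aligner, the counter, strand and the treatment of reads with several matches were not stated. Columns named for BPA match the BPA libraries, and the other columns, a letter and a number, were read as vehicle replicates by that number, because the labels hold no other group. Multiplied by gene length, 100% of values of up to 20 reads came out as whole reads within 0.01, so reads could be recovered. The library size behind the deposited FPKM followed the median-ratio size factor, not each library's own total.

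Limma 3.58.1 in R 4.3.3 tested log2(FPKM + 1), without covariates and with eBayes in its trended and robust form, over 13376 genes averaging 0.5 FPKM or more. The pseudocount of 1 makes the changes of low genes too small. Benjamini-Hochberg adjustment ran over all tested genes. Library measures were compared with exact permutations over 70 assignments. Near copies of the members were found with blastn 2.17.0 in GENCODE M21 (e-value 1e-20, at least 90% identity over 200 bases), and GC content came from the longest transcript. Other steps used Python 3.11.15, numpy 2.4.6, pandas 2.3.3, scipy 1.17.1 and matplotlib 3.10.9, and the fit was tested on simulated data.

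The members and lists were chosen with earlier results of these data known, so no count over them is independent support. Values in every library were given for members with an unadjusted p under 0.05, members without overlap, and the most and least abundant tested member of each step, and for each further list the 2 genes with the smallest p. Tmem97 was given in every library after its values were seen. Reads may be copies of the same molecule. Alternatives covered pseudocounts, filters, scaling, the variance model, library weights, voom on the recovered reads, only protein-coding genes, a replicate block, replicates 1 and 2 against 3 and 4, GC correction and each library left out.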

Additional observations from a re-analysis of the deposited data

Results flagged for a closer look

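In a check of 84 groups of 4 libraries for a highest or lowest library far from the others, 8 stood out, and chance gives about 1 in 20. Among the members, Mvd was at 14.7 FPKM in its lowest BPA library, replicate 4, with the nearest BPA library at 29.6 FPKM. Lss was at 2.20 FPKM in its highest BPA library, also replicate 4, with the next at 1.85 FPKM. Abca1 was at 5.47 FPKM in its highest vehicle library, replicate 2, with the next at 2.47 FPKM. Without BPA replicate 4, the log2 change of Mvd was -0.25 in place of -0.49, and that of Lss -0.025 in place of 0.02. Without vehicle replicate 2, that of Abca1 was 0.58 in place of 0.34 (unadjusted p = 0.00579, limma adjusted p = 0.349).

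Among measures of whole libraries, mitochondrial transcripts took 14.2% of reads in BPA replicate 4, with the next BPA library at 9.85%, and 8.33% in vehicle replicate 2, with the next vehicle library at 7.19%. Genes above 0 numbered 19693 in the lowest vehicle library, replicate 3, with the next at 20696. The mean log2(FPKM + 1) of skeletal muscle markers was 4.27 in vehicle replicate 4, with the next vehicle library at 0.745. That of thick ascending limb markers was 4.60 in the same library, with the next at 5.82. The part of these libraries' other differences in the members' values was not tested beyond leaving each library out.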

How the results depend on the processing

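Under 22 alternatives with calls, 0 members were called in any, and the smallest adjusted p of a member was 0.114 (Gpr155, limma with library weights). Gpr155 (0.44 to 0.64) and Sc5d (0.46 to 0.73) kept an unadjusted p under 0.05 in 22 of 22, Soat1 in 21, Idi1 in 16, Pmvk in 13 and Npc2 in 12. Of all tested genes, limma called 8 with library weights, 2 with a term for replicates 1 and 2 against 3 and 4, 0 with voom (1526 at an unadjusted p under 0.05), 0 among protein-coding genes (1349), and 0 to 4 when 1 library was left out. Members higher at an unadjusted p under 0.05 numbered 3 to 7 with 1 library left out (7 without vehicle replicate 2). After GC correction, Mvk joined the 4 higher members. Members lower numbered 0 to 2, with 0 without BPA replicate 2, 3 or 4 or vehicle replicate 3 or 4 and 1 without vehicle replicate 1. They numbered 0 after GC correction, with library weights and without both replicates 4, and 1 with quantile scaling. Replicate numbers did not pair the libraries (correlations of same-numbered deviations -0.033 to 0.138, not every library closest to its own number), and with a replicate block limma called 0 genes, beside 1376 at an unadjusted p under 0.05, with 4 members higher and 2 (Mvd and Npc2) lower.

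The synthesis median (0.13) was 0.079 after GC correction, 0.17 with voom or quantile scaling, 0.092 without a filter, -0.0011 within replicates 3 and 4, and 0.056 to 0.16 with 1 library left out. The trafficking median (0.34) was 0.20 with library weights, 0.47 with voom, -0.073 within replicates 1 and 2, 0.14 without both replicates 4, and 0.22 to 0.42 with 1 library left out. The sensing median (0.05) was 0.155 after GC correction, its highest value, and ran from -0.0038 to 0.074 with 1 library left out. The cause of these moves was not tested. Depth limits Pmvk (32 to 138 reads per library), Abcg1 (20 to 125) and Fdps (at most 3).

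Changes of sign touched 16 members, and 12 had none. After GC correction they were Abcg1 (0.030), Hmgcs1 (-0.048), Npc1 (-0.010) and Srebf2 (0.16). With a common total they were Lss (-0.0045), Scap (-0.0017) and Hmgcs1 (-0.0015). With library weights they were Nsdhl (0.071), Scap (-0.10), Npc1 (-0.17) and Lss (-0.034). Srebf2 turned with voom (0.013), and Nsdhl (0.037) and Srebf2 (0.033) with quantile scaling. Within replicates 1 and 2 they were Npc1 (-0.28), Lss (-0.095), Abca1 (-0.15), Scap (-0.060), Ebp (0.14) and Nsdhl (0.081). Within replicates 3 and 4 they were Insig2 (-0.034), Hsd17b7 (-0.0011), Mvk (-0.030), Hmgcs1 (-0.15), Cyp51 (-0.34) and Srebf2 (0.14). Without both replicates 4 they were Lss (-0.059), Npc1 (-0.036), Scap (-0.11), Tm7sf2 (-0.055) and Nsdhl (0.19). With 1 library left out, ranges that cross 0 were -0.061 to 0.14 for Hmgcs1, -0.13 to 0.10 for Nsdhl, -0.13 to 0.13 for Scap, -0.017 to 0.33 for Insig1, -0.020 to 0.15 for Insig2, -0.097 to 0.094 for Srebf2, -0.043 to 0.26 for Msmo1, -0.10 to 0.15 for Npc1, -0.025 to 0.045 for Lss, -0.015 to 0.13 for Tm7sf2 and -0.25 to 0.13 for Abcg1.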
